A study of Homo sapiens with 18 samples.

Results

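The genes described here are 10 regulators of cell death and survival, and what is reported is GR occupancy around them. A GR binding region (GBR) was assigned to a gene when its summit, the position of highest ChIP signal, lay within 100 kb of the transcription start site (TSS) of the gene's canonical transcript. Of 9736 regions called in at least 1 of 6 peak lists, 20 met this rule. They lay near 8 of the 10 genes, namely BCL2, BCL2L1, MCL1, BMF, BBC3, PMAIP1, BIRC2 and BIRC3, and none lay within 100 kb of BCL2L11 or XIAP.

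All cells were U2OS-GRα, a stable GRα-expressing derivative of the established osteosarcoma line U2OS. Cells were transfected for 48 h with one of 6 siRNA combinations and all of them were then given 100 nM dexamethasone (dex), a synthetic glucocorticoid, for 1 h. In siNS/siNS only nonspecific siRNA was given. Hic-5, a GR coregulator, was the target in siHic5/siNS, the chromatin remodeler CHD9 in siCHD9/siNS, and the SWI/SNF ATPase BRM in siBRM/siNS. In siCHD9/siHic5 and siBRM/siHic5 a remodeler and Hic-5 were depleted together. Each was represented by 2 ChIP libraries, pooled by the authors into 1 peak list, and 1 input library. Because no list comes from cells without dex, these calls do not show which GBR depend on hormone. With 1 pooled list per combination there was no spread between replicates, and every count below is a description without a test. The lists held 1278 GBR (siBRM/siNS) to 9533 GBR (siHic5/siNS), and their read depth was not recomputed. The files hold no expression values, so neither the identity of the cells nor the mRNA of any gene could be checked. A GBR of the siHic5/siNS list is called shared when a siNS/siNS GBR overlapped it by at least 1 bp and blocked when none did. A GBR missing from a list is one that did not pass its cutoff, which does not show that GR was absent there.

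Proteins of the BCL2 family decide whether the outer membrane of mitochondria becomes permeable and releases the factors that activate caspases. BCL2, BCL-XL (BCL2L1) and MCL1 hold the membrane closed. The BH3-only proteins BIM (BCL2L11), BMF, PUMA (BBC3) and NOXA (PMAIP1) each bind and neutralize some or all of them. The inhibitor of apoptosis proteins cIAP1 (BIRC2), cIAP2 (BIRC3) and XIAP act elsewhere: both cIAPs are ubiquitin ligases in TNF and NF-κB signaling, and XIAP binds caspases directly. Glucocorticoids are best known in this context for killing lymphoid cells, where BIM is a main mediator, while in many epithelial and mesenchymal cells they favor survival.

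Of the 20 GBR, 8 are shown as 150 bases of the plus strand of GRCh38 centered on the siHic5/siNS summit, as read from the reference genome. They were chosen to show the strongest GBR called in all lists, the strongest blocked GBR that was called after neither double depletion, the strongest blocked GBR that was called after both, and the GBR nearest to the TSS of BIRC3, BMF, BCL2L1, MCL1 and BBC3. Capitals mark matches to the GRE (the palindromic GR response element), AP-1 or ETS consensus.
BIRC3, 11.0 kb upstream, chr11:102306375-102306524, strongest GBR in all 6 lists, no match: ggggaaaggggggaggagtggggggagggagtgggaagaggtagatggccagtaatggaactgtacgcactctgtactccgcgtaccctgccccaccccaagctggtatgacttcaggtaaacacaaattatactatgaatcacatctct
BCL2L1, 23.7 kb downstream, chr20:31699124-31699273, blocked and called after neither double depletion, GRE: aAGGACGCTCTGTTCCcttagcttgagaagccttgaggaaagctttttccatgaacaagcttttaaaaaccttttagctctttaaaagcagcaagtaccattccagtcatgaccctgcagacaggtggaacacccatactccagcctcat
PMAIP1, 54.9 kb downstream, chr18:59954855-59955004, blocked and called after both double depletions, ETS: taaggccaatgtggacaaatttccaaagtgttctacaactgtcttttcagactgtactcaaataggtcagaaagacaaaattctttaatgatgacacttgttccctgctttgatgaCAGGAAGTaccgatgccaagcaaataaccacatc
BIRC3, 0.152 kb upstream, chr11:102317257-102317406, blocked, no match: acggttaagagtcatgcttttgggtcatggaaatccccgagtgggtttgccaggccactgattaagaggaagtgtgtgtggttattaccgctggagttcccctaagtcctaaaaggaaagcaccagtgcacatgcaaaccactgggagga
BMF, 9.90 kb downstream, chr15:40098899-40099048, blocked, AP-1: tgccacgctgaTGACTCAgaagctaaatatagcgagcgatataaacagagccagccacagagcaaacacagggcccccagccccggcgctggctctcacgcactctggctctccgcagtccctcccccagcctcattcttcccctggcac
BCL2L1, 10.1 kb downstream, chr20:31712662-31712811, shared, GRE: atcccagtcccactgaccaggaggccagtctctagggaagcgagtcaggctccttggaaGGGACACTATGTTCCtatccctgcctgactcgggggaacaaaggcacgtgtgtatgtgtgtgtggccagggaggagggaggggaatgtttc
MCL1, 11.4 kb downstream, chr1:150568170-150568319, shared, GRE: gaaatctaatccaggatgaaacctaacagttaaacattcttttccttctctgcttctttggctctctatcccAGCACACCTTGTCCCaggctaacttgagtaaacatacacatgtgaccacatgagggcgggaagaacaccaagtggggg
BBC3, 19.5 kb upstream, chr19:47250606-47250755, blocked, ETS: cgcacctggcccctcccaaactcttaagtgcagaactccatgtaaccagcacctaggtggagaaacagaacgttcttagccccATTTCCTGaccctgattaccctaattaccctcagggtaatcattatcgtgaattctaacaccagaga

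After Hic-5 depletion, GR was called at 20 places around these genes, against 6 with control siRNA. The 6 shared GBR lay near BCL2L1 (1 GBR), MCL1 (2), BBC3 (1) and the adjacent BIRC2 and BIRC3 genes (2), and the other 14 (70.0%) were blocked. Over the whole siHic5/siNS list 7059 of 9533 GBR (74.0%) were blocked, a share close to that of these genes, where a single GBR counts for 5 percentage points. All 6 siNS/siNS GBR near these genes were called again after Hic-5 depletion. This was usual over the whole series, where the siNS/siNS list held 2582 GBR and 2474 siHic5/siNS GBR overlapped one of them. BCL2, BMF and PMAIP1 had no GBR in siNS/siNS and had 1, 1 and 2 in siHic5/siNS. No region near these genes was called in another list without being called in siHic5/siNS, and over all genes 97.8% of the 9736 regions were called there.

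**Figure D1:**
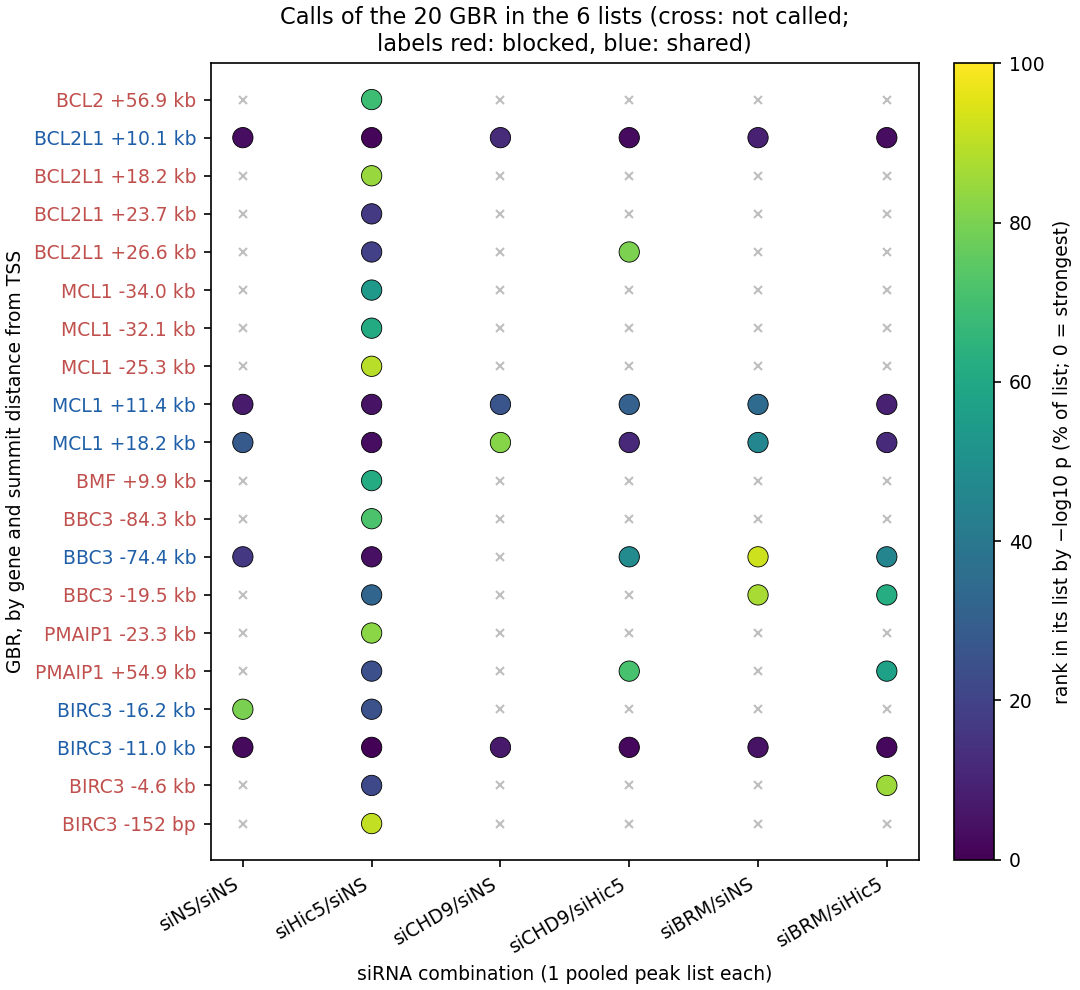
Calls of the 20 GBR near BCL2 family and survival genes (rows, named by gene and summit distance from the canonical TSS) in the 6 peak lists (columns). Filled circles are called GBR, colored by their rank in the list as a percentage of the list (0% is the strongest), and crosses are GBR that were not called. The siHic5/siNS column is filled in all 20 rows, and 4 rows are filled in every column.

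Among the antiapoptotic BCL2 family genes of the 10, BCL2 itself had the fewest GBR nearby. BCL2 (ENSG00000171791.14) occupies chromosome 18 from 63123346 to 63320128 (minus strand), and its only GBR within 100 kb was intronic, from 63262654 to 63263164, 56.9 kb downstream of the TSS. It was blocked and weak. Strength is given here as the −log10 p-value that MACS2 assigned to the peak, and as the rank of that value within its own list. The lists differ in length, from 1278 to 9533 GBR, and both a rank and its percentage of the list depend on that length, so neither measures a change in GR occupancy between lists. The BCL2 GBR had a −log10 p-value of 16.9 and ranked 6548 of 9533 in siHic5/siNS, and it was called in no other list.

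BCL2L1, which encodes BCL-XL, combined a strong GBR called in all 6 lists with 3 GBR that were called only in lists from Hic-5-depleted cells. The gene (ENSG00000171552.14) spans 31664452 to 31723989 of chromosome 20 (minus strand), and all 4 GBR were intronic. The first, from 31712143 to 31713690 and 10.1 kb from the TSS, was called in all 6 lists, with summits within 28 bp of each other. Its −log10 p-value was 108 in siNS/siNS, 175 in siHic5/siNS, 46.1 in siCHD9/siNS, 118 in siCHD9/siHic5, 51.1 in siBRM/siNS and 188 in siBRM/siHic5. As a rank this put it among the strongest 1.29% of siHic5/siNS GBR and at 12.4% of the siCHD9/siNS list, its lowest place. The peak in siHic5/siNS was 1548 bp wide, the widest of the 20.

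The other BCL2L1 GBR lay deeper in the gene and were all blocked. That from 31698865 to 31699541, 23.7 kb from the TSS, had a −log10 p-value of 50 in siHic5/siNS (rank 1617) and was missing from all other lists. It was the strongest blocked GBR near any of the 10 genes. That from 31695970 to 31696655, 26.6 kb from the TSS, was nearly as strong (46.5, rank 1788) and was called once more, in siCHD9/siHic5, with a −log10 p-value of 13.8 near the bottom of that list (rank 1971 of 2451). It was the only one of the 20 that was called in siCHD9/siHic5 and not in siBRM/siHic5. Over the whole list 6231 GBR had no siBRM/siHic5 GBR, and 5887 of them had no siCHD9/siHic5 GBR either. Its −log10 q-value in siCHD9/siHic5 was 9.99, and the siBRM/siHic5 list holds no GBR under 14.2. The last, from 31704462 to 31704938 and 18.2 kb from the TSS, was weak (14, rank 8066) and was called in siHic5/siNS alone.

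MCL1 encodes a short-lived antiapoptotic protein and had the most GBR of the 10 genes, 5 in siHic5/siNS. Of all 20033 protein-coding genes, 554 (2.77%) had 5 or more within 100 kb and 1169 (5.84%) had 4 or more. MCL1 (ENSG00000143384.14) runs on chromosome 1 (minus strand) from 150560895 to 150579738 when all its transcripts are counted, while its canonical transcript ends at 150574558. Both of its shared GBR lay beyond that end, in an intron of longer MCL1 transcripts, and both were called in all 6 lists.

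For the MCL1 GBR from 150567916 to 150568531, 11.4 kb downstream, the −log10 p-value was 74.9 in siNS/siNS, 103 in siHic5/siNS, 29.0 in siCHD9/siNS, 30.2 in siCHD9/siHic5, 23.9 in siBRM/siNS and 109 in siBRM/siHic5. It ranked 182, 448, 371, 748, 443 and 312 in those lists, which is 7.05%, 4.70%, 26.2%, 30.5%, 34.7% and 9.22% of their lengths. Rank and percentage order siNS/siNS and siHic5/siNS differently, and no order is read from them. The GBR from 150561162 to 150562118, 18.2 kb downstream, had −log10 p-values of 31.9, 120, 13.4, 62.1, 19.7 and 90.5 in the same order. Its rank was 721 of 2582 GBR in siNS/siNS and 323 of 9533 in siHic5/siNS, 1159 of 1415 in siCHD9/siNS and 270 of 2451 in siCHD9/siHic5, and 585 of 1278 in siBRM/siNS and 411 of 3383 in siBRM/siHic5. In each pair the rank was the better one in the list without Hic-5, which is also the longer list. The TSS nearest to this GBR is that of ADAMTSL4, 12 kb away, not that of MCL1.

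The 3 blocked GBR of MCL1 were on the other side of the gene, 25.3, 32.1 and 34.0 kb upstream, in introns of the neighboring gene ENSA, which encodes a regulator of the mitotic phosphatase PP2A. The TSS of ENSA was nearer to each of them than that of MCL1. They extend from 150604769 to 150605261, from 150611372 to 150611939 and from 150613406 to 150613822, had −log10 p-values of 13.4, 18.8 and 20.9, and ranked 8497, 5780 and 5137 in siHic5/siNS. None of them was called in another list.

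**Figure D2:**
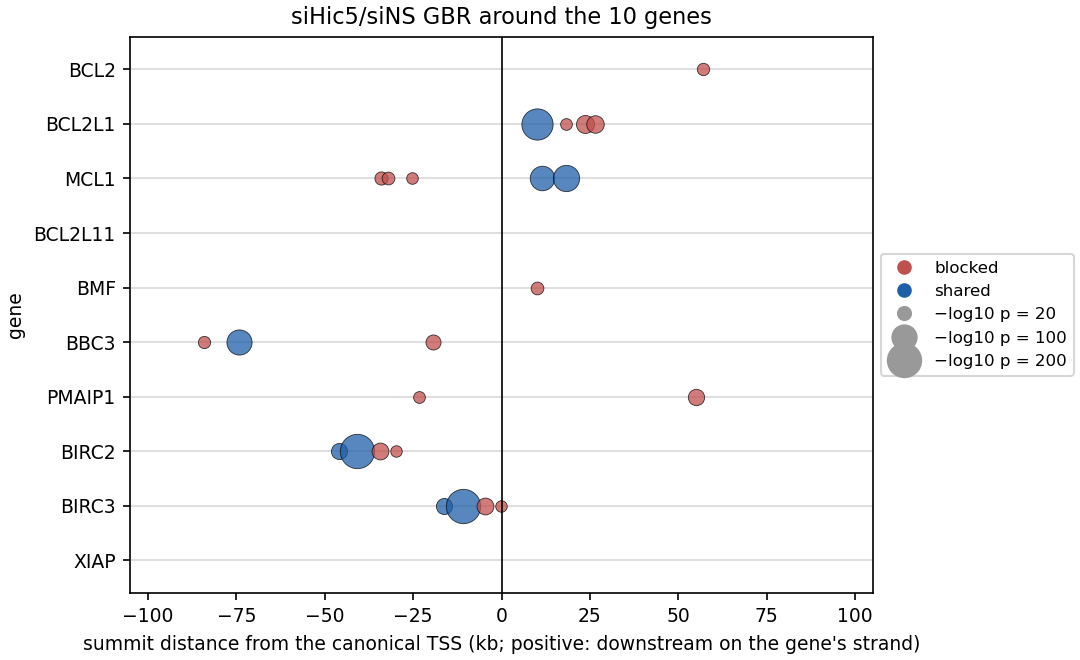
Distance of the siHic5/siNS GBR summits from the canonical TSS of each gene (x-axis, kb, positive values downstream on the gene's strand), with point area increasing with the −log10 p-value. BIRC2 and BIRC3 share the same 4 GBR, BCL2L11 and XIAP have none, and the 5 strongest GBR are all shared.

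Of the BH3-only genes, BCL2L11, which encodes BIM, had no GBR within 100 kb in any list, and its nearest siHic5/siNS GBR lay 165 kb upstream of the TSS. BMF, whose protein is held at the cytoskeleton in healthy cells, had 1. BMF (ENSG00000104081.14) covers 40087890 to 40108892 of chromosome 15 (minus strand), and the GBR from 40098703 to 40099169 is in an intron 9.90 kb from the TSS. It had a −log10 p-value of 18.7 (rank 5831) and was called in siHic5/siNS alone.

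BBC3, which encodes the p53 target PUMA, was the only BH3-only gene among the 10 with a GBR in cells containing Hic-5. Its position is 47220822 to 47232766 on chromosome 19, minus strand (ENSG00000105327.18). The shared GBR, from 47305239 to 47305882, is 74.4 kb upstream in an intron of C5AR1, the complement C5a receptor gene, whose TSS is 4.27 kb away. Its −log10 p-value was 44.3 in siNS/siNS and 109 in siHic5/siNS (rank 400), and 21.6 in siCHD9/siHic5, 12 in siBRM/siNS and 35 in siBRM/siHic5. It was not called in siCHD9/siNS. A weak blocked GBR from 47315330 to 47315730, 84.3 kb upstream and also in a C5AR1 intron, was called in siHic5/siNS alone (16.4, rank 6847).

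The GBR nearest to the BBC3 TSS was blocked by the definition used here but was also called in a list from cells containing Hic-5. It is intergenic, from 47250460 to 47250924, 19.5 kb upstream of BBC3 and 5.84 kb from the TSS of CCDC9. The −log10 p-value was 31.2 in siHic5/siNS (rank 3070), 27.2 in siBRM/siHic5 and 12.6 in siBRM/siNS. In siBRM/siNS its −log10 q-value was 8.43, below the lowest value of 8.88 that any GBR of the siNS/siNS list had, so the lists differ in how weak a peak they hold. Only 37 of the 7059 blocked GBR (0.524%) had a siBRM/siNS call, and 144 (2.04%) had one in siCHD9/siNS.

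PMAIP1, which encodes NOXA, had 2 intergenic GBR and both were blocked. Its position is 59899996 to 59904305 on chromosome 18, plus strand (ENSG00000141682.12). The GBR from 59954670 to 59955300, 54.9 kb downstream, had a −log10 p-value of 38.9 in siHic5/siNS (rank 2325), 15.3 in siCHD9/siHic5 and 29.6 in siBRM/siHic5. It was the only one of the 14 blocked GBR near these genes (7.14%) that was called in both doubly depleted lists. Over the whole list the share was close to this, with 399 of 7059 blocked GBR (5.65%). The GBR from 59876503 to 59876855, 23.3 kb upstream, was the narrowest of the 20 at 353 bp and was called in siHic5/siNS alone (14.3, rank 7865).

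The strongest GBR of the whole group belonged to the inhibitor of apoptosis genes. BIRC3 (ENSG00000023445.17, chromosome 11 from 102317484 to 102339403) and BIRC2 (ENSG00000110330.10, from 102347211 to 102378670) are adjacent on the plus strand, and the same 4 intergenic GBR upstream of BIRC3 fell within 100 kb of both. They were 29.9 to 46.0 kb from the TSS of BIRC2 and at most 16.2 kb from that of BIRC3, so they are named by BIRC3. The GBR from 102306000 to 102306779, 11.0 kb upstream of BIRC3, was called in all 6 lists with summits within 18 bp. Its −log10 p-value was 122 in siNS/siNS, 214 in siHic5/siNS, 70.0 in siCHD9/siNS, 127 in siCHD9/siHic5, 70.6 in siBRM/siNS and 216 in siBRM/siHic5. It ranked 62, 74, 95, 57, 63 and 76 in those lists, and so stood among the strongest 6.71% or better in each.

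The other 3 GBR of the BIRC3 locus each had a different pattern of calls. That from 102300965 to 102301511, 16.2 kb upstream, was called in siNS/siNS (−log10 p-value 15.1, rank 2061 of 2582) and in siHic5/siNS (37.5, rank 2410), but in none of the 4 lists with CHD9 or BRM depleted. It was the only shared GBR near these genes that was missing after double depletion. That from 102312521 to 102313192, 4.57 kb upstream, was blocked and had −log10 p-values of 42.1 in siHic5/siNS (rank 2084) and 20.8 in siBRM/siHic5 (rank 2886 of 3383). The last, from 102317112 to 102317625, covers the TSS, with its summit 0.152 kb upstream. It was the only GBR of the 20 at a promoter and the weakest of them, with a −log10 p-value of 13.0 and rank 8671, and was called in siHic5/siNS alone. XIAP, on the X chromosome, had no GBR within 100 kb, and the nearest in siHic5/siNS was 451 kb away.

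**Figure D3:**
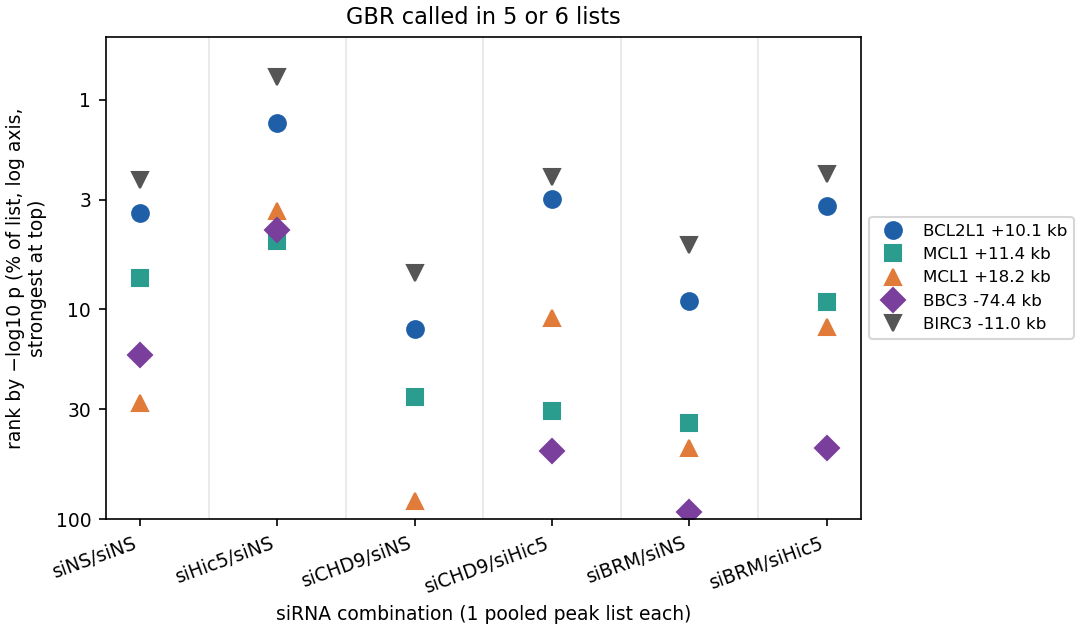
Rank of the 5 GBR near these genes that were called in 5 or 6 lists, as a percentage of each list (y-axis, log scale, strongest at the top), for the 6 siRNA combinations. The BIRC3 GBR 11.0 kb upstream and the BCL2L1 GBR 10.1 kb downstream lie at 12.4% or better in every list, while the MCL1 and BBC3 GBR spread from 3.39% to 92.4%, and since the lists differ in length, heights in different columns are not a measure of change.

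To ask which GBR of Hic-5-depleted cells were still called when CHD9 or BRM was depleted as well, the siHic5/siNS GBR were compared with both doubly depleted lists. Near the 10 genes, 13 of 20 GBR (65.0%) had no siCHD9/siHic5 GBR and 12 (60.0%) had no siBRM/siHic5 GBR, against 75.4% and 65.4% of all 9533. Of the 14 blocked GBR, 12 (85.7%) were missing from siCHD9/siHic5 and 11 (78.6%) from siBRM/siHic5, where the shares over all blocked GBR were 90.6% and 83.3%. Of the 6 shared GBR, 1 (16.7%) was missing from each, the same BIRC3 GBR, against 32.3% and 14.3% of all shared GBR. The other 5 (83.3%, against 64.7%) were called after both double depletions, and 4 of the 6 (66.7%, against 35.7%) in all lists. These shares differ from those of the whole list by only a few GBR. The siBRM/siHic5 list has the highest cutoff of the 6, with a lowest −log10 q-value of 14.2 against 7.26 to 8.91 in the others. Of the 12 GBR missing from it, 6 had −log10 q-values under 14.2 in siHic5/siNS itself.

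In cells containing Hic-5, 4 of these GBR (20.0%, against 14.5% of all siHic5/siNS GBR) were called with CHD9 depleted and 6 (30.0%, against 13.1%) with BRM depleted. The 4 in siCHD9/siNS were those at BCL2L1, at MCL1 (2) and at BIRC3 that were called in every list, and siBRM/siNS held in addition the BBC3 GBR at 74.4 kb and at 19.5 kb upstream. In all, 4 of the 20 GBR (20.0%) were called in all 6 lists and 10 (50%) in siHic5/siNS only, against 9.25% and 58.7% of all siHic5/siNS GBR. Of all 9736 regions, 9.05% were called in all 6 lists.

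**Figure D4:**
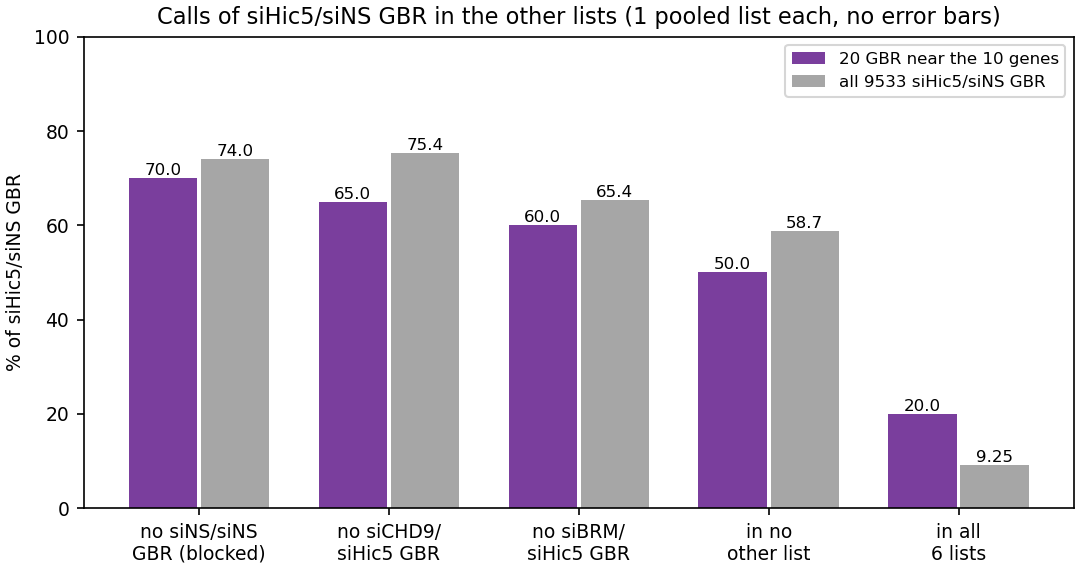
Share of siHic5/siNS GBR (y-axis, %) that were missing from the named list, called in no other list, or called in all 6 lists, for the 20 GBR near the 10 genes and for all 9533. Bars are single shares of pooled lists without error bars. The bars for the 20 GBR read 70.0%, 65.0%, 60.0%, 50% and 20.0%, beside 74.0%, 75.4%, 65.4%, 58.7% and 9.25% for all GBR.

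Weaker GBR of siHic5/siNS were called in fewer of the other lists. The 5 strongest of the 20 (ranks 74 to 448) lay within the strongest 10% of the list, and all were shared and called in both doubly depleted lists. In that part of the list 5.22% of all GBR were blocked. The 9 that fell into the weakest 50% were all blocked, as were 95.6% of all GBR in that part. All 9 were also missing from both doubly depleted lists. Between these limits were 6 GBR, of which 5 were blocked (64.4% of all). At any strength, 79.5% of all blocked GBR were missing from both doubly depleted lists, and 64.7% of all shared GBR were called in both. These 2 shares were not computed by strength. The median −log10 p-value was 114 (range 37.5 to 214) for the 6 shared GBR and 18.7 (13.0 to 50) for the 14 blocked GBR, beside 54.7 and 18.7 over the whole list. The blocked GBR at 23.7 and 26.6 kb in BCL2L1, at 4.57 kb upstream of BIRC3 and at 54.9 kb downstream of PMAIP1 exceeded the weakest shared GBR, at 16.2 kb upstream of BIRC3, in −log10 p-value.

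None of the 20 summits fell in an exon of a protein-coding gene. In 13 the summit was in an intron, 8 of these in the member gene itself, and 7 were intergenic. Most lay at middle distance, with 14 of 20 between 9 and 35 kb from the TSS, 2 within 5 kb (both at BIRC3) and 4 beyond 50 kb. The farthest GBR inside the limit of 100 kb was that of BBC3 at 84.3 kb, and the nearest ones outside it lay 112 kb from BCL2L1 and 112 kb from PMAIP1. For 7 of the 20, the nearest protein-coding TSS was that of a gene other than the 10, as for the GBR in ENSA and C5AR1, and no file links a GBR to the gene it regulates.

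DNA sequence was examined in the 1 kb centered on each summit, on both strands. The motifs were the GRE in its 15-base consensus form with at most 1 mismatch at 10 defined positions, AP-1 (TGACTCA, which read on the other strand is TGAGTCA), and ETS (CAGGAAAC, CAGGAAAT, CAGGAAGC, CAGGAAGT, CCGGAAAC, CCGGAAAT, CCGGAAGC or CCGGAAGT). A GRE was found in 9 of the 20 GBR (45.0%), against 53.6% of all 9533 windows and 12.6% of windows 5 kb to either side. An AP-1 match was found in 7 (35%, against 37.1% and 16.4%) and an ETS match in 10 (50%, against 37.9% and 27.4%). No match to any of the 3 was found in 3 of the 20 windows (15.0%, against 16.2%). The 9 GRE were close to the summit, at a median of 9 bp and all within 100 bp. Over the list the median was 20.0 bp, and 87.2% of GBR with a GRE had it within 100 bp.

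Shared and blocked GBR of these genes differed in which motif they held. A GRE was present in 5 of 6 shared GBR (83.3%) and in 4 of 14 blocked GBR (28.6%), beside 66.9% of all shared and 48.9% of all blocked GBR. AP-1 was present in none of the 6 shared and in 7 of the 14 blocked GBR (50%), although over the whole list AP-1 was found in 36.5% of shared and 37.3% of blocked GBR. ETS was present in 1 of 6 shared and 9 of 14 blocked GBR (64.3%), beside 35% and 38.9%. In the central 200 bp, ETS remained in 4 of the blocked GBR (28.6%) and in none of the shared, beside 14.9% and 11.0% of the whole list. With 6 shared GBR these are descriptions of single sites and were not tested.

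Of the 9 GRE, 4 matched without a mismatch. Those of the shared GBR of BCL2L1 and MCL1 are the capitals in the sequences above, and the other two are shown because both lie upstream of BIRC3 but in GBR with different calls.
BIRC3, 16.2 kb upstream, shared, chr11:102301255-102301269: GGTACATTCTGTCCT
BIRC3, 4.57 kb upstream, blocked, chr11:102312891-102312905: AGAACAGTATGTTCC
A GRE without mismatch was present in 3 of the 6 shared GBR and 1 of the 14 blocked GBR, against 18.7% of all shared and 8.64% of all blocked. The GBR at 4.57 kb was blocked with such an element 21.0 bp from its summit. The strongest GBR of all, 11.0 kb upstream of BIRC3, was without a match to any of the 3 motifs in 1 kb. With 2 mismatches allowed it had matches 52.0 and 85.0 bp from the summit, but such a loose match was present in the central 200 bp of 81.1% of all GBR.

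The 3 blocked GBR of MCL1, in ENSA introns, shared a makeup, each with 1 or 2 AP-1 matches within 100 bp of the summit and no GRE. The blocked GBR of BMF and that of BBC3 at 84.3 kb upstream were of the same kind, and so was the BCL2L1 GBR at 26.6 kb. An AP-1 match without a GRE was thus found in 6 of the 14 blocked GBR (42.9%), against 22.0% of all blocked GBR. In the BCL2L1 GBR the AP-1 match overlapped an ETS match by 1 base, and it is printed as the only overlap of motifs among the 20.
BCL2L1, 26.6 kb downstream, chr20:31696254-31696267, ETS then AP-1: CAGGAAATGACTCA
The GBR at the BIRC3 TSS and that of BCL2L1 at 18.2 kb held none of the 3 motifs. A match describes these letters only and does not show which factor was bound.

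**Figure D5:**
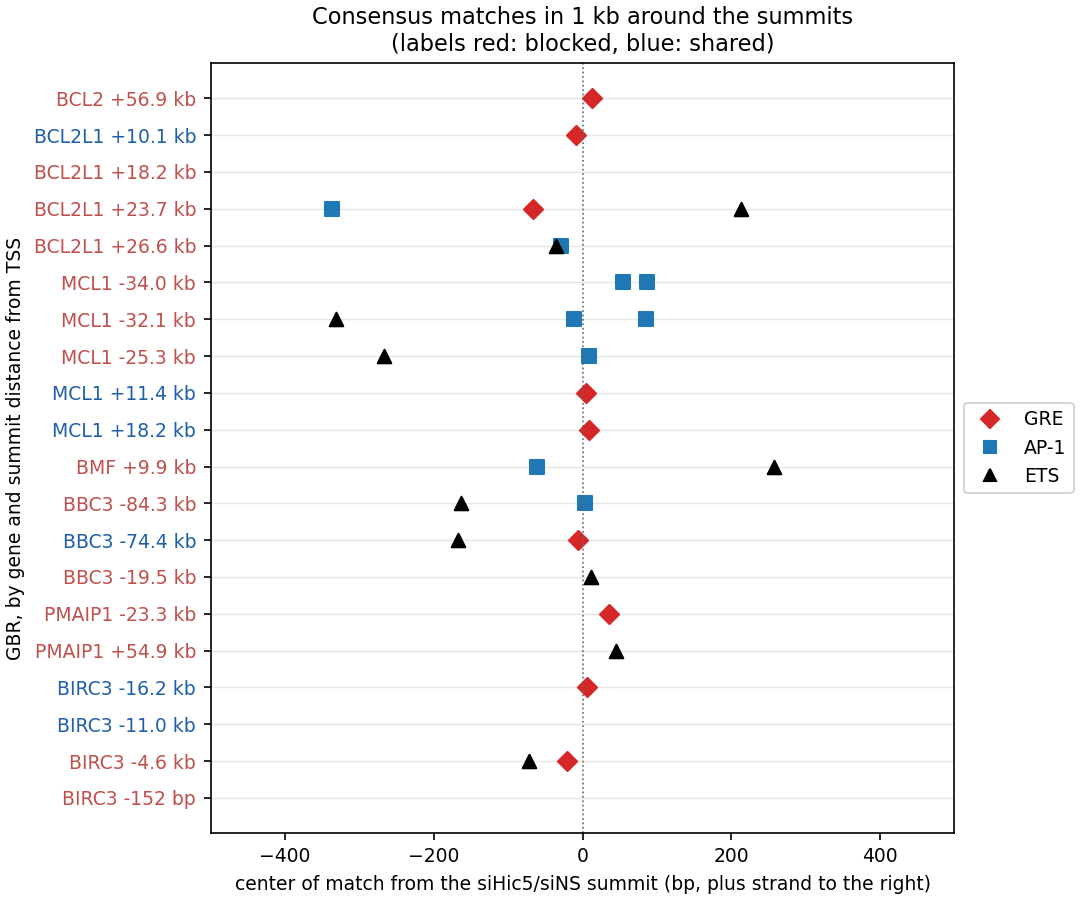
Positions of GRE (red diamonds), AP-1 (blue squares) and ETS (black triangles) matches relative to the siHic5/siNS summit (x-axis, bp) in the 20 GBR near these genes (rows, blocked in red and shared in blue). GRE matches sit within 100 bp of the summit in 9 rows, and AP-1 matches occur in 7 rows, all of them blocked.

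The share of genes with GR nearby was high among the 10. In siHic5/siNS 8 of 10 had a GBR within 100 kb (80.0%), against 43.6% of all 20033 protein-coding genes, and in siNS/siNS 5 of 10 had one (50%), against 17.0%. BIRC2 and BIRC3 contribute the same 4 GBR to these counts. The share was 4 of 10 against 10.5% in siCHD9/siNS, 6 of 10 against 16.4% in siCHD9/siHic5, 5 of 10 against 9.92% in siBRM/siNS and 6 of 10 against 22.2% in siBRM/siHic5. These values describe the genes chosen and were not tested.

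A wider list of 33 apoptosis genes, which holds the effectors BAX and BAK1, other BCL2 relatives, caspases, death receptors and their adaptors, lay nearer to the genome as a whole. In siHic5/siNS 16 of the 33 (48.5%, against 43.6% of all genes) had a GBR within 100 kb, and in siNS/siNS 8 (24.2%, against 17.0%). Together they had 35 siHic5/siNS GBR, of which 25 (71.4%, against 74.0% of the whole list) were blocked, 28 (80.0%, against 75.4%) were missing from siCHD9/siHic5 and 24 (68.6%, against 65.4%) from siBRM/siHic5. Of the 35 GBR, 3 (8.57%, against 9.25% of the whole list) were called in all 6 lists. These lay near 2 of the 33 genes, HTRA2 and TRAF2. HTRA2, a mitochondrial protease that antagonizes inhibitors of apoptosis, had 1, which ranked 189 in siHic5/siNS and lay 30.8 kb from its TSS but nearest to that of DOK1. TRAF2, the adaptor that brings cIAP1 and cIAP2 to TNF receptors, had 6 GBR in siHic5/siNS and 4 in siNS/siNS, and 2 were called in all lists. The nearest of the 6 lay 72.8 kb from its TSS. The strongest of them ranked 502 and lay 82.8 kb from the TRAF2 TSS but nearest to that of PTGDS. The best ranks after these were 572 for a GBR 67.7 kb from BCL2L13, 754 for one 82.4 kb from BIK and 942 for one 96.7 kb from FADD, each nearest to another gene (SLC25A18, PACSIN2 and ANO1). CASP10 had 5 GBR within 100 kb in siHic5/siNS, which are shared with CFLAR, the gene of the caspase-8 inhibitor c-FLIP, whose TSS was 0.548 kb from the nearest.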

How the data were processed

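GR ChIP-seq in U2OS-GRα cells comprised 12 ChIP and 6 input libraries, grouped by the siRNA combination in the sample titles. The authors trimmed the reads, aligned them to GRCh38/hg38 (BWA), discarded mitochondrial reads and duplicates, called peaks with MACS2 on pooled replicates and filtered them with the IDR framework. Versions and the IDR threshold are not given in the sources used here. Per peak, the deposited files hold a score, a signal value (a fold enrichment in the format MACS2 writes) and −log10 values of p and q. The deposited score, like the signal value, was not used. The peak lists hold no read counts, so the depth behind each list was not computed here, and depth can act on which weak peaks are called.

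Peaks were matched by overlap of at least 1 bp, linked regions were counted once, and ranks were taken within each list. All 25 sequence names of the lists were present in the GRCh38 reference, and no peak ended beyond its sequence. Gene positions came from the 20033 protein-coding genes of GENCODE release 44 with a canonical TSS, and sequences from GRCh38. Peak height was not compared between lists by a test, because a p-value depends on depth. Each of the 10 genes was accounted for. Named with full values were, per gene, the siHic5/siNS GBR nearest to the TSS and the strongest, GBR called in all 6 lists, and any absent from siHic5/siNS (there were none). The remaining GBR were added since they were few. Of the 33 other apoptosis genes, those with a GBR in all lists and the 5 with the strongest GBR were named, and CASP10 and CFLAR were added after their values were seen. The genes, lists and rules were chosen with earlier results of these data known. Overlap counting was tested on simulated peaks against bedtools 2.31.1. The motif search was tested on random sequences for recovery of planted matches only. Python 3.11.15 and Matplotlib 3.10.9 were used. The alternatives were distances of 50 and 200 kb, other TSS and overlap rules, a common q-value cutoff, the 1000 strongest peaks and other motif settings. Inputs were not analysed here.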

Additional observations from a re-analysis of the deposited data

How the results depend on the processing

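Alternatives chosen with earlier results known were run for 9 counts, 6 of GBR calls and 3 of motif matches, and 35 of 53 recomputed values stayed within 1.5 times the value reported, including the number of GBR called in all 6 lists (3 or 4 of them under every alternative). With a limit of 200 kb the siHic5/siNS GBR, and equally the regions over all lists, rose from 20 to 33, with 23 blocked and 23 missing from siCHD9/siHic5. Where a member gene had to have the nearest TSS they fell to 13, with 9 blocked and 8 missing from siCHD9/siHic5. A common −log10 q-value cutoff of 14.2 left 14 siHic5/siNS GBR, of which 9 were blocked and 6 missing from siBRM/siHic5 (42.9%, against 60.0% with the lists as deposited). Among the 1000 strongest peaks of each list 5 GBR were left in siHic5/siNS and over all lists, of which 0 were blocked, 1 was missing from siCHD9/siHic5 and 1 from siBRM/siHic5. The share of blocked GBR ranged from 64.3% to 71.4% under the alternatives other than the 1000 strongest peaks. Shares over all GBR under the same alternatives are not given here, so these changes are not read as particular to these genes. Stricter overlap rules changed none of these counts, and the other counts of the report were not recomputed. GRE matches were found in 4 GBR with no mismatch and in 17 with at most 2, and ETS matches in 4 in the 200-bp window. No paired analysis was possible because the authors pooled the replicates into 1 list per combination, and for the same reason no replicate could be left out. The lists hold no read counts, and GBR near the cutoff of a list, such as that at the BIRC3 TSS, are the least certain.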
